A study of Mus musculus with 9 samples.

Results

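A set of 179 genes had lower RNA in BSA + luteolin than in both BSA and Control, while BSA and Control differed little. The set was chosen by measured values from the 47643 genes counted in bone marrow-derived mast cells (BMMCs). TMM-normalized counts scaled to library size (CPM) were made over all 9 libraries, and the 11569 genes with a median CPM above 1 were kept. Of these, 9527 had a log2 ratio of mean BSA over mean Control between -0.5 and 0.5. A log2 ratio of BSA + luteolin over BSA at or below -0.8 left 300 of them, and the same limit against Control left 226. In 179, the highest luteolin library was also below the lowest of the other 6. Because all 9 libraries and all 3 comparisons entered the choice, the members' levels are given as a description and carry no test.

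The BMMCs were grown from bone marrow of C57BL/6 mice for at least 4 weeks in medium with WEHI-3-conditioned medium, a source of IL-3. Control cells were untreated, BSA cells received IgE and DNP-BSA, and BSA + luteolin cells received IgE, DNP-BSA and luteolin, a plant flavone. The labels give 10 μM luteolin for 24 h, and the sources used here do not settle whether luteolin came before or after the stimulation. There were 3 libraries per group and no unstimulated group with luteolin. Nothing in the labels says that the libraries came from separate mice or cultures, so p-values measure only the spread between these libraries.

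Mast cells carry IgE on the receptor FcεRI, and antigen that crosslinks it starts degranulation and a fast transcriptional response. Many transcripts of resting cells are also made and degraded quickly, among them Krüppel-like factors, Notch target genes, growth arrest genes and the primary transcripts of miRNAs. The level of such a transcript can follow a change in its synthesis within hours. A total RNA level does not tell synthesis from decay, and in bulk samples fewer cells of a type and less RNA per cell cannot be told apart.

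The libraries held 9515004 to 24605689 counts, so that 3 counts stood for 0.119 to 0.265 CPM, a limit of counting error alone. Summed markers of mast cells were 58000 to 100000 CPM in Control, 71200 to 80700 CPM in BSA and 87100 to 99500 CPM in BSA + luteolin. Control 1 stood apart from Control 2 and 3, with chi-square per degree of freedom of 88.1 and 146 against 6.55 between the latter and 4.04 to 15.2 within the other groups. The 8 neutrophil markers summed to 5.49 to 221 CPM in Control, with Control 1 at the upper end, to 145 to 161 CPM in BSA and to 174 to 205 CPM in BSA + luteolin. Control 1 thus lay just above the treated libraries in these markers, and Control 2 and 3 were far below them. The mast cell proteases Mcpt2 and Mcpt4 read 4657 and 1793 CPM in Control 1, against 165 and 184 CPM in Control 2 and 152 and 190 CPM in Control 3. The BSA and BSA + luteolin libraries held 2888 to 4663 CPM of Mcpt2 and 1012 to 1622 CPM of Mcpt4. The basophil protease Mcpt8 read 442, 19.9 and 18.1 CPM in Control 1 to 3 and the eosinophil granule gene Prg2 read 32.3, 0.0884 and 0 CPM, while the 6 other libraries held 288 to 379 CPM and 13.6 to 23.7 CPM. In these genes Control 1 was near the treated libraries and Control 2 and 3 were not, and the sources used here do not give whether the Control libraries came from 1 culture. The mean of Control, and each ratio to it, takes in both kinds of library. None of these genes and no neutrophil marker was a member, and the part of this difference in the members' values was not tested. With Control 2 and 3 removed and Control 1 as the one Control library, the rule picked 113 genes, 72 of them members. Without Control 1 it picked 246, and 137 of these were members.

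Among the members, the median log2 ratio was -1.36 to BSA and -1.37 to Control, against 0.06 and 0.11 over all 11569 genes. The median log2 ratio of BSA over Control was -0.003. Both ratios were at or below -1, a 2-fold lower level, in 125 members. They were at or below -2 in 33 members and at or below -3 in 8. The members drew 0.889% to 1.38% of all counts in Control, 0.945% to 1.26% in BSA and 0.409% to 0.476% in BSA + luteolin. Every member was detected in every luteolin library, although 7 members had fewer than 10 reads in each of them. The lowest of the 6 other libraries exceeded the highest luteolin library by a median of 0.63 on the log2 scale, with a range from 0.03 to 2.65.

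**Figure D1:**
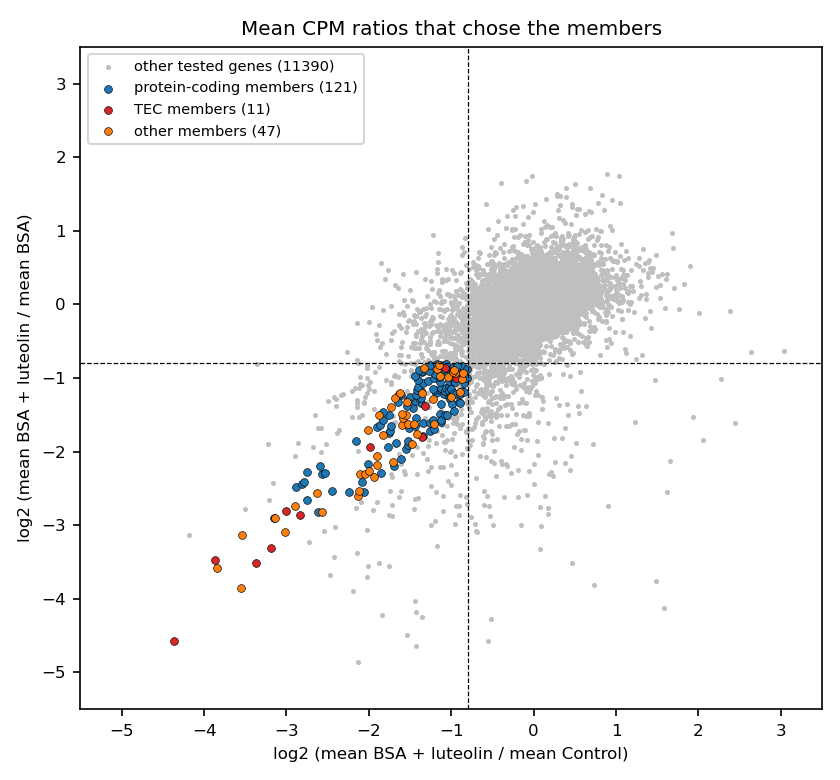
Each point is a gene with a median CPM above 1, placed by its log2 ratio of mean BSA + luteolin over mean Control (horizontal) and over mean BSA (vertical). Dashed lines mark the limit of -0.8, and the 121 protein-coding members, the 11 members of the TEC class and the other 47 are colored. Gray genes in the lower left quadrant met both limits but differed between BSA and Control or overlapped between libraries.

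At the limit itself, the members nearest to it were Midn, a nucleolar and proteasome-linked protein, at -0.80 against Control, Cyb5d1 at -0.80 against BSA, and Ing5, a chromatin reader, at -0.81 against Control. Oit3 at -0.80 against BSA, Tent5a at -0.79 against Control and Gramd1b at -0.79 against BSA were just outside. These genes on either side of the limit hardly differ. The mirrored rule, for genes higher with luteolin by the same limits, picked 5 genes: Rpl39-ps, Cebpzos, Gm4149, Gm14586 and ENSMUSG00000085550. The filter on median CPM keeps a gene that is low only with luteolin but drops a gene expressed only with luteolin. The counts of 179 and 5 are therefore not on equal terms.

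By edgeR's quasi-likelihood test with Benjamini-Hochberg adjustment, 178 of 179 members passed as lower in BSA + luteolin than in BSA, where 21.7% of all genes tested passed as lower and 18.1% as higher. That balance of 2516 lower and 2097 higher genes turned with the scaling: with library size alone, 1757 genes were lower and 3850 higher, and the median log2 change of all genes was 0.13 in place of 0.02. With all 9 libraries in the fit, 911 were lower and 174 higher. Against Control, 105 members passed, where 2.75% of all genes did. Between BSA and Control no member passed in either direction, and 3.28% of all genes did. Of the members, 7 (3.91%) had an unadjusted p below 0.05 there, against 2364 (20.4%) of all genes. Since these contrasts chose the members, nothing was read from the counts. Those against Control rested on single libraries: without Control 1, 177 members passed as lower with luteolin, as did 3483 (30.1%) of all genes. In that fit 60 members (33.5%) passed between BSA and Control, 53 lower and 7 higher in BSA, against 5217 (45.1%) of all genes. Without Control 2 or 3, 43 and 38 of all genes passed as lower with luteolin against Control, 20 and 16 of them members. Without luteolin library 1, 2 or 3, 5, 2 and 21 genes passed, 3, 1 and 8 of them members. DESeq2 passed 170 members as lower with luteolin against Control, of 1031 genes (8.91%), and limma passed 90 of 286 genes (2.47%). Between BSA and Control, DESeq2 passed 3 members of 1224 genes (10.6%), and limma passed 0 members of 394 genes (3.41%).

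Some members are the primary transcripts or hosts of miRNAs. RefSeq miRNAs on the same strand lie within 8 of the 177 members with annotation (4.52%), against 463 of 11550 genes tested (4.01%). In 5 of the 8 the miRNAs belong to families well known in blood cells, and their mature sequences are given to show which products these transcripts encode. They are Mir17hg, Mir142hg, Dleu2, Vmp1 and F630028O10Rik, picked after their values were seen. The others were Zfp84, Alkbh1 and 2900076A07Rik. Mature sequences are from RefSeq (GRCm38.p6), 5′ to 3′, with the seed, bases 2 to 8, in capitals. Mir17hg (chr14:115042879-115046727, plus strand) encodes miR-17-5p and miR-20a-5p, which share 1 seed, miR-19a-3p and miR-19b-3p, which share another, and miR-18a-5p and miR-92a-3p.
miR-17-5p: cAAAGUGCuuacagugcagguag
miR-20a-5p: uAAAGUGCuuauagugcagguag
miR-19a-3p: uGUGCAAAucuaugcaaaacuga
miR-19b-3p: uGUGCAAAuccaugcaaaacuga
miR-18a-5p: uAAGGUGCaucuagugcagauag
miR-92a-3p: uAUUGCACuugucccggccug
Dleu2 (chr14:61602839-61682373, minus strand) carries miR-15a-5p and miR-16-5p, again with a shared seed.
miR-15a-5p: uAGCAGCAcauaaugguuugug
miR-16-5p: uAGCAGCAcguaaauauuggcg
Mir142hg (chr11:87755577-87757270, plus strand) encodes miR-142a, Vmp1 (chr11:86583865-86683836, minus strand) holds miR-21a near its 3′ end, and F630028O10Rik (chrX:96239926-96243636, plus strand) holds miR-223.
miR-142a-5p: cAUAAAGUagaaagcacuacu
miR-142a-3p: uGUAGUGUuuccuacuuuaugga
miR-21a-5p: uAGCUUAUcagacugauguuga
miR-223-3p: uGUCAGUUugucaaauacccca

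Mir17hg read 5.83, 10.5 and 9.55 CPM in Control 1 to 3, 10.2, 6.05 and 14.7 CPM in BSA 1 to 3 and 0.912, 1.56 and 1.89 CPM in BSA + luteolin 1 to 3. Its log2 ratio was -2.82 to BSA and -2.57 to Control, the lowest of the 5 transcripts on both scales. Mir142hg read 14.5, 7.42 and 8.44 CPM in Control, 9.44, 8.18 and 11.9 CPM in BSA and 3.6, 2.49 and 4.04 CPM with luteolin. Control 1 held the highest level of Mir142hg but the lowest of Mir17hg, so this library was not shifted one way in all members. Dleu2 read 7.62, 17 and 18 CPM in Control, 14.8, 11.2 and 15.4 CPM in BSA and 4.75, 3.71 and 6.13 CPM with luteolin. Vmp1, an autophagy protein whose gene holds miR-21a, read 424, 283 and 272 CPM, 416, 356 and 474 CPM, and 146, 142 and 133 CPM in the same order. F630028O10Rik changed least of the 5, at -0.87 to BSA and -1.17 to Control, and its highest luteolin library (2.74 CPM) was close to its lowest BSA library (3.16 CPM). Mature miRNAs were not measured in these libraries.

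Krüppel-like factors are zinc finger transcription factors that keep leukocytes quiescent or carry TGF-β responses, and Klf2, Klf10 and Klf11 were members. Klf10 (chr15:38291463-38300706) had the lowest ratios of any protein-coding member, -2.90 to BSA and -3.15 to Control. Its levels were 31.5, 69.4 and 53.7 CPM in Control, 46.1, 37.6 and 46 CPM in BSA, and 6.72, 5.83 and 4.84 CPM in BSA + luteolin. The luteolin libraries differed from each other far less than they did from any other library. Klf2 stood at 228, 174 and 189 CPM in Control, 250, 315 and 263 CPM in BSA and 72.1, 60 and 60.9 CPM with luteolin. Klf2 was near the edge of the rule on the stimulation side, since its log2 ratio of BSA over Control was 0.49. Klf11 had ratios of -2.41 and -2.09. Bcl6, a transcriptional repressor with zinc fingers, read 6.82, 27.2 and 20.3 CPM in Control, 15.3, 12 and 18.7 CPM in BSA and 2.74, 3.55 and 3.14 CPM with luteolin. Its 3 Control libraries spanned more than its BSA libraries, with Control 1 the lowest of the 6.

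Of the 121 protein-coding members, 19 (15.7%) encoded at least 1 match to the C2H2 zinc finger pattern in the translated reference transcript, against 4.54% of the protein-coding genes tested. Proteins with 5 or more matches were 10.7% of the members and 3.12% of the genes tested, and they were 1.66% of a comparison set of genes induced by stimulation and lowered with luteolin. That set had a log2 ratio of at least 0.5 for BSA over Control and of at most -0.8 for BSA + luteolin over BSA, with no overlap between the libraries in either comparison, and held 330 genes. The largest was Zfp619 with 33 matches. The 13 members with 5 or more matches had a median log2 ratio of -1.18 to BSA and -1.34 to Control. Zfp747 was the lowest of them at -2.44 and -2.82, with 3.63, 5.92 and 6.05 CPM in Control, 3.88, 3.1 and 5.04 CPM in BSA and 0.576, 0.591 and 1.05 CPM with luteolin. Zfp869 was among the more weakly lowered at -1.04 and -1.03. Zinc finger paralogs share sequence, and the treatment of reads that match several places is not given in the sources used here, so values of single Zfp genes carry that uncertainty. Among the other 350 C2H2 genes picked by their symbols, 100 fell and 21 rose in BSA + luteolin against BSA by edgeR, where 21.7% of all genes tested fell and 18.1% rose. With library size alone, 82 fell and 46 rose. Against Control, 24 fell and none rose by edgeR, where 2.75% and 0.285% of all genes did. An unadjusted p below 0.05 in either direction was found for 157, and for 22.9% of all genes. DESeq2 passed 92 as lower, against 8.91% of all genes, and 3 as higher. limma passed 22 as lower and 0 as higher. Already without luteolin, 17 of the 350 were lower in BSA than in Control and 10 higher, where 1.02% and 2.26% of all genes were. Their median log2 ratio with luteolin was -0.088 to BSA and -0.377 to Control. These shares over all genes stand beside each list count that follows, and they move with the scaling as given above. Klf6 and Klf9, both higher in BSA than in Control by mean CPM, were at a log2 change with luteolin against BSA of -2.26 (SE 0.06, adjusted p = 8.89e-15) and -2.79 (SE 0.09, adjusted p = 1.7e-13).

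The 6 genes of stress and growth arrest, Vmp1 among them at -1.57, had log2 ratios to BSA from -2.82 to -1.57, with a median of -2.07. Ddit3, which encodes the stress-induced factor CHOP, read 58.4, 66.8 and 64.3 CPM in Control, 73.9, 69.9 and 73.9 CPM in BSA and 10.1, 9.88 and 10.8 CPM in BSA + luteolin. Ddit4, an inhibitor of mTORC1 signaling, read 169, 85.4 and 91.1 CPM, 141, 148 and 138 CPM, and 24.4, 24.8 and 23.7 CPM in the same order. Both showed a tight luteolin group well below every other library, and Control 1 alone exceeded the BSA libraries for Ddit4. Osgin1, an oxidative stress-induced growth inhibitor, was also highest in replicate 1 of Control, at 191, 81.7 and 104 CPM, with 163, 203 and 145 CPM in BSA and 34.3, 34.3 and 35.9 CPM with luteolin. Relative to Control 2 and 3 alone, Ddit4 and Osgin1 were higher in each BSA library. Gadd45g, a growth arrest protein, and Trp53inp2, an autophagy cofactor, had log2 ratios to BSA of -1.75 and -1.85. Of the 21 other p53 target genes tested, 13 fell and 4 rose in BSA + luteolin against BSA and 2 fell against Control by edgeR. DESeq2 passed 6 as lower and 1 as higher against Control. By edgeR 5 of the 21 were higher in BSA than in Control, where 2.26% of all genes were. Those that fell with luteolin against both groups included Pmaip1, a proapoptotic BH3 protein, at -2.51 to BSA (SE 0.07, adjusted p = 1.93e-14 by edgeR) and -1.37 to Control (adjusted p = 0.0418). Pmaip1 was at 1.16 in BSA against Control (adjusted p = 0.0565).

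**Figure D2:**
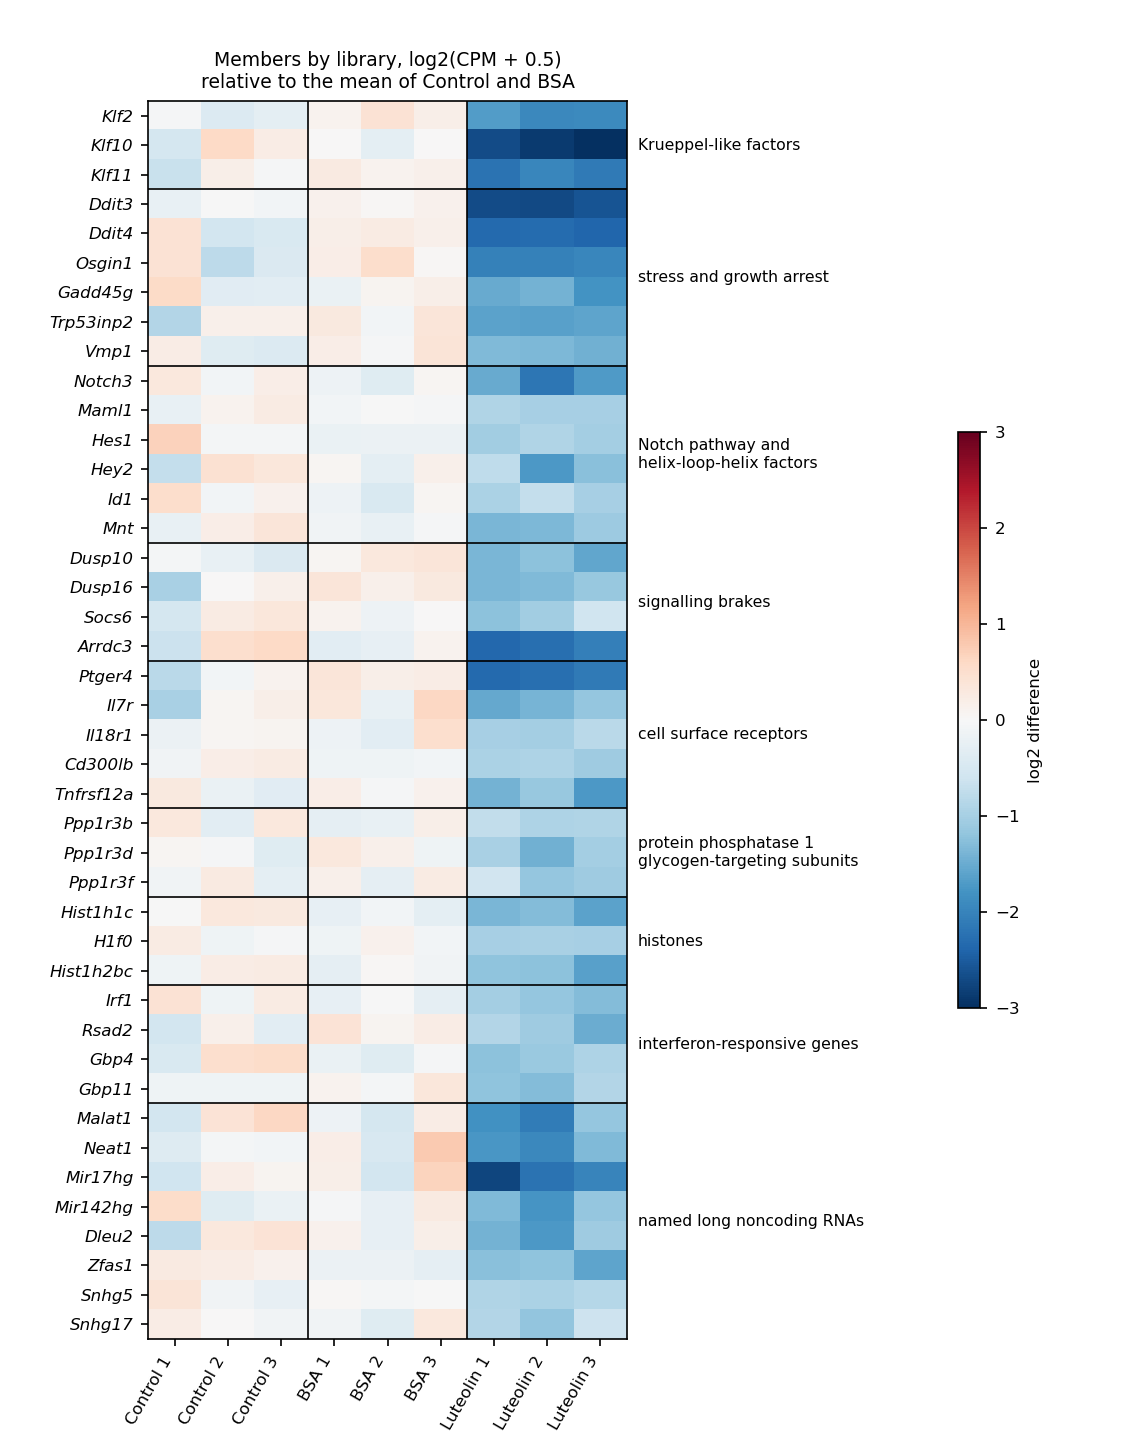
Color shows log2(CPM + 0.5) of a member in a library minus its mean over the 6 Control and BSA libraries, for members grouped by role. All 3 luteolin columns are blue in each group, while Control 1 is red for some members (Ddit4, Hes1, Mir142hg) and blue for others (Ptger4, Il7r, Dleu2).

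The Notch pathway was present at 3 levels, the receptor Notch3, the coactivator Maml1 and the target genes Hes1 and Hey2. Notch3 read 10.4, 7.78 and 9.43 CPM in Control, 7.41, 6.3 and 8.6 CPM in BSA and 2.55, 1.44 and 2.19 CPM with luteolin. Hes1, a repressor that Notch induces, read 35.2, 20.5 and 20.5 CPM, 18.6, 19.1 and 18.8 CPM, and 10.2, 11.3 and 10.3 CPM. Hes1 was thus nearly level across Control 2, Control 3 and BSA, and its ratio to Control of -1.26 rested in part on Control 1. Hey2 and Maml1 had log2 ratios to BSA of -1.31 and -0.94. The helix-loop-helix genes Id1 and Mnt were members as well, at -0.91 and -1.16. Of the other 16 Wnt and Notch genes tested, 9 fell and 1 rose against BSA by edgeR. With all 9 libraries in the fit, 1 fell. Against Control, 0 passed by edgeR, and DESeq2 passed 1 as lower and limma 0. An unadjusted edgeR p below 0.05 was found for 4 of the 16, near the 22.9% of all genes. The DNA-binding partner of Notch, Rbpj, fell against BSA by 0.52 on the log2 scale (SE 0.06, adjusted p = 2.43e-06) and was at -0.14 to Control (adjusted p = 0.579). The coactivator Maml2 fell against BSA by 0.78 (SE 0.11, adjusted p = 2.67e-05) and was at -0.87 to Control (adjusted p = 0.199).

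Receptors at the cell surface included Ptger4, the prostaglandin E2 receptor EP4, and the cytokine receptors Il7r and Il18r1. Ptger4 read 34.2, 57.1 and 64.4 CPM in Control, 78, 68.5 and 70.8 CPM in BSA and 11.6, 12.2 and 13.4 CPM in BSA + luteolin. Its BSA libraries lay above every Control library, and the log2 ratio of 0.48 between these groups was just inside the limit of 0.5. Il7r, Il18r1 and Cd300lb, an activating receptor of myeloid cells, had log2 ratios to BSA of -1.72, -1.04 and -0.87. Tnfrsf12a, the receptor of TWEAK, was at -1.68. Among the 39 other G protein-coupled receptors of leukocytes tested, 16 fell and 5 rose against BSA, where 21.7% and 18.1% of all genes did, and 13 fell and 10 rose with library size alone. Against Control, 4 fell and 1 rose by edgeR, and 11 fell and 4 rose by DESeq2.

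Several members restrain signaling. Dusp10 and Dusp16 encode phosphatases that act on p38 and JNK, Socs6 is a suppressor of cytokine signaling, and Arrdc3 is an arrestin-like adaptor. Dusp10 read 15.5, 13.7 and 11.9 CPM in Control, 16.8, 20.1 and 20.8 CPM in BSA and 5.96, 6.63 and 5.19 CPM with luteolin. Dusp16 had log2 ratios of -1.59 to BSA and -1.12 to Control. Arrdc3 had the lowest pair of this group, -2.19 and -2.59, and its levels were 14.1, 31.6 and 33.8 CPM, 17.6, 18.6 and 24 CPM, and 3.94, 4.26 and 4.99 CPM. Control 2 and 3 exceeded Control 1 and all BSA libraries for Arrdc3. Of the 37 other genes of the STAT5 axis tested, 17 fell and 4 rose against BSA by edgeR, and 4 fell against Control. With library size alone, 12 fell and 9 rose against BSA, and DESeq2 passed 7 as lower against Control. Socs3 fell against BSA (log2 change -1.86, SE 0.08, adjusted p = 1.17e-11 by edgeR) and was at -0.69 to Control (adjusted p = 0.14). It was higher in BSA than in Control by 1.17 (adjusted p = 0.0404 by edgeR).

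Tsc22d3, the glucocorticoid-induced leucine zipper, and Irf1, a transcription factor of interferon responses, belonged to a group of 12 other transcription regulators with a median log2 ratio of -1.28 to BSA. Tsc22d3 read 51.3, 85.6 and 73.2 CPM in Control, 57.5, 55 and 50.3 CPM in BSA and 21.1, 19.5 and 18.6 CPM with luteolin. Sertad1, a cyclin-dependent kinase 4 regulator, was at -2.65 and Pnrc1, a nuclear receptor coactivator, at -1.88. Irf1 read 26.8, 18 and 23.6 CPM, 16.6, 19.9 and 16.3 CPM, and 9.56, 8.57 and 7.83 CPM, and its ratios were -1.02 and -1.40. Rsad2, the antiviral protein viperin, was the other member of the interferon list, at -1.44 and -0.97. Of 25 other interferon-stimulated genes tested, 5 fell and 5 rose against BSA, near the 21.7% and 18.1% of all genes, and 4 fell and 6 rose with library size alone. Against Control, 0 passed by edgeR, DESeq2 or limma, and 4 had an unadjusted p below 0.05 by edgeR, where 22.9% of all genes did. The guanylate-binding genes Gbp4 and Gbp11 were also members (-0.91 and -1.26 to BSA), with the caution that they belong to a cluster of near copies. Cry2, a repressor of the circadian clock, was at -1.24 and -1.43. Of 16 other clock genes 9 fell against BSA by edgeR and 2 against Control. Per1 was at -2.06 to BSA (SE 0.08, adjusted p = 2.95e-12) and -1.44 to Control (adjusted p = 0.00576). It was higher in BSA than in Control by 0.63 (adjusted p = 0.0235 by edgeR).

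RNA processing was represented by Clk1, a kinase of splicing factors, and Ccnl1, a cyclin of the splicing machinery. Clk1 read 207, 272 and 267 CPM in Control, 314, 267 and 318 CPM in BSA and 124, 122 and 142 CPM with luteolin. Ccnl1 had log2 ratios of -1.33 and -0.91. A further 8 members act in RNA processing or tRNA modification (Clp1, Krr1, Ddx28, Trmt10c, Ctu1, Alkbh1, Lcmt2 and Cbll1). Their ratios to BSA, with those of Clk1 and Ccnl1, ran from -1.64 to -0.84. Of 21 other SR proteins and kinases 11 fell and 2 rose against BSA, and 1 fell against Control. The deubiquitinases Usp40, Usp35 and Usp27x and the ligases Trim58 and Mylip had ratios to BSA between -1.66 and -1.14.

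The members that drew the most reads were the nuclear RNA Neat1, the transglutaminase Tgm2, the mast cell tryptase Tpsab1, the linker histones H1f0 and Hist1h1c, Vmp1, Malat1, the glycosyltransferase Gcnt1, the small GTPase Arl4c and Clk1. Neat1, the scaffold of paraspeckles, read 1479, 1856 and 1828 CPM in Control, 2224, 1376 and 3317 CPM in BSA and 574, 504 and 772 CPM with luteolin. Malat1, its neighbor on chromosome 19 with 22035 bases between them, read 234, 457 and 530 CPM, 308, 239 and 400 CPM, and 98.2, 80.1 and 155 CPM. Both were lowest in replicate 1 of Control, in replicate 2 of BSA and in replicate 2 of BSA + luteolin. Tgm2 read 921, 1133 and 1342 CPM, 1198, 1189 and 1176 CPM, and 505, 559 and 556 CPM. Tpsab1 was the only member among 16 mast cell markers tested, and it read 412, 669 and 673 CPM, 558, 477 and 602 CPM, and 225, 227 and 226 CPM. Of the 16 markers, 3 fell and 9 rose in BSA + luteolin against BSA by edgeR. Beside Tpsab1, those that fell were Mitf, by 0.19 on the log2 scale (SE 0.06, adjusted p = 0.0251), and Hdc, the enzyme that makes histamine, by 1.16 (SE 0.08, adjusted p = 5.75e-09). Hdc read 562, 303 and 320 CPM in Control, 853, 727 and 952 CPM in BSA and 371, 406 and 397 CPM with luteolin. Among markers of other cells, 3 of 4 for basophils rose, as did S100a8 and S100a9, of 7 for neutrophils, at log2 changes of 0.43 and 0.32. Of 4 eosinophil markers Siglecf fell by 1.07 (SE 0.17, adjusted p = 0.000119). The part of these differences in the members' values was not tested. Tryptase genes are close paralogs, and reads shared between them could not be separated here.

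Linker histone Hist1h1c read 428, 543 and 532 CPM in Control, 363, 411 and 354 CPM in BSA and 167, 176 and 141 CPM in BSA + luteolin. H1f0, the replacement linker histone, read 511, 393 and 419 CPM, 395, 469 and 405 CPM, and 217, 218 and 216 CPM. The luteolin libraries of H1f0 were nearly equal, and all lay below the lowest of the other 6. Hist1h2bc, a core histone 45899 bases from Hist1h1c on chromosome 13, was at -1.26 and -1.50. Among regulators of the cytoskeleton and small GTPases, Rhob read 146, 144 and 143 CPM, 184, 219 and 176 CPM, and 75, 63.7 and 65.9 CPM. The ARF-like GTPases and Ras-association proteins Arl4a, Arl4c, Rassf6 and Rassf10, the Cdc42 exchange factor Fgd3 and the actin-severing Cfl2 had ratios to BSA from -2.28 to -0.84. The subunits Ppp1r3b, Ppp1r3d and Ppp1r3f, which bring protein phosphatase 1 to glycogen, were at -0.84, -1.62 and -1.54. Enzymes of lipid metabolism were Plpp3, a lipid phosphate phosphatase (-1.94), Acer2, an alkaline ceramidase (-2.54), and Chka, a choline kinase (-1.25). Acer2 had only 3 to 11 reads per luteolin library. The inward rectifier Kcnj2, the zinc exporter Slc30a1 and the creatine transporter Slc6a8 were at -1.49, -1.57 and -1.18. These role groups, and the members named in them beyond those picked by rank or list, were formed after the values were seen.

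Noncoding transcripts made up a larger part of the members than of the genes tested. Long noncoding genes were 42 of 177 members with annotation (23.7%), against 3.36% of the 11550 annotated genes tested and 3.35% of those in the abundance range of the members, from the 10th to the 90th percentile of their mean CPM. That range, 1.396 to 112.7 CPM, held 9438 of the 11550 genes, so it hardly narrows the comparison and does not match abundance. Long noncoding members had a median mean CPM of 2.82, against 28.37 over all genes tested. The GENCODE class TEC, unspliced transcripts without an assigned function, held 11 members (6.21%) against 0.658%. Of the 12 members with the lowest ratios, 11 were long noncoding or TEC, and Klf10 was the other. Gm43890, the lowest of all, read 2.19, 4.42 and 3.42 CPM in Control, 3.93, 2.39 and 5.33 CPM in BSA and 0.096, 0.0422 and 0.349 CPM in BSA + luteolin. Its luteolin levels rested on 1 to 7 reads per library. On the same strand it overlaps Mthfd2 (log2 ratio to BSA -0.04) without shared exonic bases. Likewise, the TEC members Gm44243, Gm42732 and Gm37123 overlap Gabarapl1, Ociad1 and Pik3ca (-0.09, 0.24 and -0.21). Unspliced reads of these coding genes could be counted for the TEC members, and this was not tested. The 11 TEC members had a median log2 ratio of -2.81 to BSA and a median mean CPM of 1.81, against -1.26 and 15.0 for the 121 coding members. Other named noncoding members were the small nucleolar RNA hosts Zfas1, Snhg5 and Snhg17, at -1.20, -0.92 and -0.89 to BSA. Of 700 other predicted and RIKEN genes tested, picked by symbol, 129 fell and 86 rose against BSA by edgeR. With library size alone, 100 fell and 125 rose.

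Strand matters for such genes. Exonic bases were shared with a gene on the opposite strand in 56 members, and in 32 of them that gene was itself tested. The libraries were stranded, but the strand setting of the counting is not given in the sources used here, so reads of a gene and its antisense partner cannot be told apart with certainty. B130046B21Rik shared 40.3% of its exonic bases with Prkag1 on the opposite strand, whose log2 ratio to BSA was 0.24 while that of B130046B21Rik was -1.71. Ldlrad4 shared 52.1% with Fam210a, at -0.01 against -0.82. C030034L19Rik shared 43.6% with Zfp704, and here the partner was lower too, at -0.26 to BSA and -0.54 to Control against -0.99 and -1.04. Lower still were the partners of 4 members that shared less of their exonic bases. 9830144P21Rik, at -1.76 to BSA, shared 9.25% with Slc20a1 (-1.62 to BSA, -0.87 to Control), and E230013L22Rik, at -1.63, shared 19.2% with Rab20 (-1.33 and -0.75). Ccnl1 shared 7.37% with Gm37305 (-1.16 and -0.64), and Notch3 shared 6.03% with Gm17276 (-0.82 and -0.97). Lrch4 shared 77.2% of its exonic bases with Gm20605 on its own strand and Gm23130, a small nucleolar RNA, lay wholly within exons of Rps12, so their values are uncertain. These genes were named after their values were seen.

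The protein-coding members were short in gene structure. Their median number of exons in the reference transcript was 4, against 9 over all protein-coding genes tested and 9 in the abundance range of the members. A single exon was found in 9.09% of them, against 1.90%. These 11 genes were Magee2, Rassf10, Fam43a, Lcmt2, Kctd11, Ppp1r3d, Hist1h1c, Rhob, H1f0, Ddx28 and Arl4c. At most 3 exons were found in 33.1% against 11.7%, and a gene span over 50 kb in 10.7% against 27.1%. The length of the transcript itself differed little, with a median of 3146 against 3003 bases, and the protein had a median of 435 against 457 residues. The 330 induced and lowered genes had a median of 5 exons, and 34.1% of their coding genes had at most 3. A single exon was found in 4.30% of these coding genes. In the 3′ UTR, the pentamer ATTTA occurred at a median of 1.25 per kb in members, 1.38 per kb over all and 2.17 per kb in the induced genes. Exon number, gene span and the ATTTA count were added after the members had been seen.

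**Figure D3:**
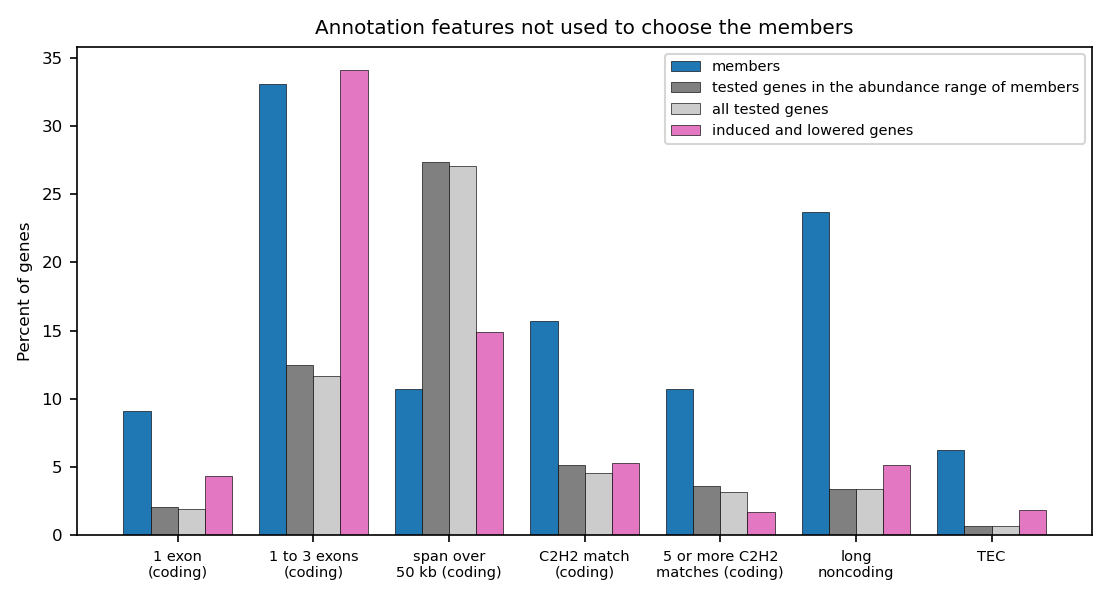
Bars show the percent of genes with each annotation feature among the members, the genes tested in the members' abundance range, all genes tested, and the 330 genes induced by stimulation and lowered with luteolin. The first 5 features are percents of protein-coding genes. Long noncoding genes reached 23.7% among members and 5.17% among the induced genes, whereas 1 to 3 exons were as frequent in both at 33.1% and 34.1%.

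By chromosome, the members' share of annotated genes tested ran from 0.767% on chromosome 14 to 2.52% on chromosome 7, leaving out chromosome Y with 1 gene tested. In 8 pairs, adjacent members lay within 100 kb of each other on the same strand. They were Malat1 and Neat1, Mir142hg and Tspoap1, Hist1h2bc and Hist1h1c, Bet1l and Ifitm5, and 4 pairs with zinc finger genes: Zfp655 with Zscan25, Zfp868 with Zfp869, Zfp747 with E430018J23Rik, and Zfp719 with Ctu1. Promoter sequences were matched for 67.8% of the members and 78.3% of the genes tested, too few for a comparison of promoter motifs, and the shares of motifs were left out for that reason.

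Libraries of the same group differed in the members' levels. Control 1 was the lowest Control library for 130 members (72.6%), where it was the lowest for 38.3% of all genes tested. BSA 2 was the lowest BSA library for 68.7% of the members against 30.9% of all genes. Luteolin library 3 was the lowest of its group for 21.2% against 39.7%. These shares follow from libraries that also entered the choice, and they are given as a description. Relative to each member's mean over the 6 Control and BSA libraries, the median difference was -0.33 in Control 1, 0.14 in Control 2, 0.12 in Control 3, 0.06 in BSA 1, -0.14 in BSA 2 and 0.16 in BSA 3. It was -1.30, -1.23 and -1.11 in luteolin libraries 1, 2 and 3.

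**Figure D4:**
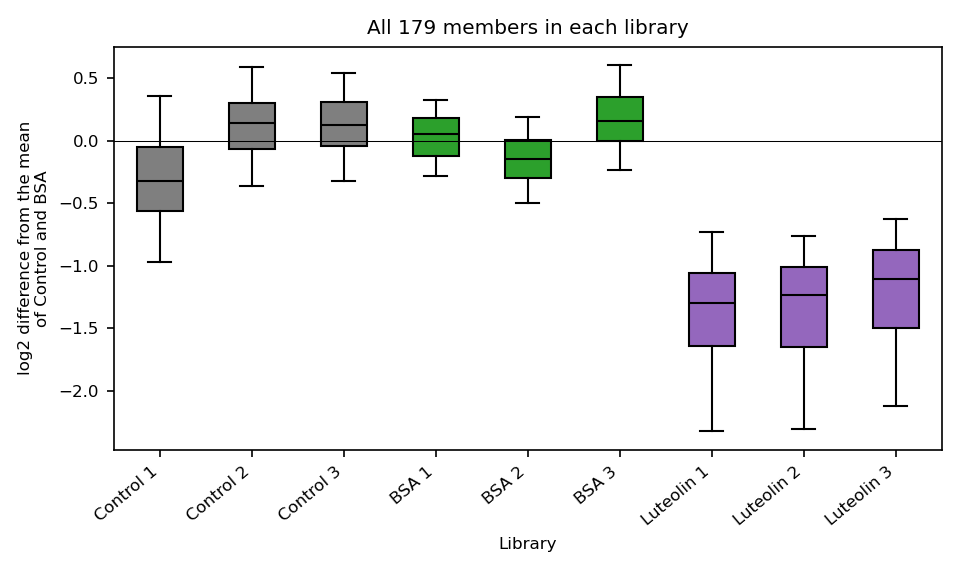
Boxes give the quartiles, center lines the median and whiskers the 5th and 95th percentiles over the 179 members of log2(CPM + 0.5) minus a member's mean over the Control and BSA libraries. Control 1 (median -0.33) and BSA 2 (-0.14) lie below the other libraries of their groups, and the luteolin libraries lie lowest at -1.30 to -1.11.

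The words "not induced" depended on which Control library was taken. Against Control 1 alone, the log2 ratio of mean BSA had a median of 0.37 over the members, and it was at or above 0.5 in 69 of them (38.5%), against 17.2% of all genes tested. Against the mean of Control 2 and 3, the median was -0.12, with 10 members (5.59%) at or above 0.5 and 29 (16.2%) at or below -0.5. Of all genes tested, 17.3% and 11.3% were past these limits. The lower level with luteolin held on each reference taken singly. The median log2 ratio of mean BSA + luteolin was -1.11 to Control 1, -1.47 to Control 2, -1.50 to Control 3, -1.37 to BSA 1, -1.21 to BSA 2 and -1.50 to BSA 3. The ratio was below 0 for every member against every library, which the rule itself required.

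A luteolin library left out of the choice gave values the rule had not used. Genes were chosen by the same rule on the other 8 libraries, and their level in the left-out library was then compared with the 6 Control and BSA libraries, which had entered the choice. Of 197 genes chosen without luteolin library 1, 184 (93.4%) were below the lowest of the 6 in that library, where 14.2% of all genes were. For library 2 it was 180 of 187 (96.3%, against 13.6%). For library 3 it was 196 of 244 (80.3%, against 10.2%). The median log2 ratio to BSA in the left-out library was -1.42, -1.36 and -1.03, against 0.04 to 0.06 over all genes. Luteolin library 3 thus showed the smallest difference of the 3.

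Several of the pathways listed for comparison held no member. The members are 179 of 11569 genes tested, and at that share lists of these sizes would hold few or none. Nothing was read from the absence of members. Of 34 genes of transcription elongation and coactivation, 26 fell and 1 rose in BSA + luteolin against BSA by edgeR, and none was a member. Against Control, 2 of them fell. Brd2, a bromodomain coactivator, had a log2 change of -1.45 to BSA (SE 0.05, adjusted p = 6.4e-13). Of 56 chromatin-modifying enzymes, 33 fell and 2 rose, and of 37 genes of the Toll-like receptor and NF-κB pathway, 21 fell and 3 rose. With library size alone, 21 of the enzymes fell and 8 rose, and 15 genes of the Toll-like receptor list fell and 6 rose. For the elongation list it was 23 and 3. With all 9 libraries in the fit, 8 genes of the elongation list, 8 of the enzymes and 13 of the Toll-like receptor list fell. Against Control, 2 of these enzymes fell, and 3 genes of the Toll-like receptor list fell and 1 rose. Nfkbia, the inhibitor of NF-κB, was lower with luteolin than in both other groups by the test (log2 change -3.48 to BSA, adjusted p = 6.28e-16, and -2.53 to Control, adjusted p = 0.000353), but it was higher in BSA than in Control by 0.95 (adjusted p = 0.00421) and so was no member. With all 9 libraries in the fit, 198 listed genes outside the set passed as lower against BSA in place of 508.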

How the data were processed

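RNA of BMMCs was measured in 9 libraries, 3 each of Control, BSA and BSA + luteolin, grouped by their labels. Per the labels and the study's methods, the authors prepared stranded mRNA libraries, filtered reads with HTStream, aligned them with STAR 2.7.0f (genome mm10), and deposited 1 raw count per Ensembl gene and library. The strand setting and annotation release of the counting are not given in the sources used here.

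Counts were scaled with TMM factors over 9 libraries to CPM, and the members were chosen by the rule given in the report. Comparisons used edgeR 4.0.16 (quasi-likelihood, two-sided, 6 libraries each, Benjamini-Hochberg threshold 0.05) in R 4.3.3 over 11569 genes. The test was tried on simulated data for BSA + luteolin against BSA: it recovered 91.5% of 200 genes changed 2-fold, and 7.58% of its calls were false. Alternatives used limma 3.58.1, DESeq2 1.42.0, other scalings, filters, limits and left-out libraries. No replicates agreed within sampling noise. The members, gene lists and tests were chosen with earlier results of these data known.

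Named members are the 12 with the lowest value of the larger of both log2 ratios, the 10 with the highest mean CPM, up to 4 per gene list by mean CPM, and 3 on either side of the limit. Others were named after their values were seen. Up to 3 further genes per list are those with the lowest p against BSA. Symbols were matched by Ensembl ID, and 2 members had none. Gene structure is from GENCODE M21 (GRCm38), with 1 transcript per gene by APPRIS rank, then coding and total length. The C2H2 pattern had C, 2 to 4 residues, C, 3 residues, a hydrophobic residue or C, 8 residues, H, 3 to 5 residues, H. Lists without a member not described in the report gave, among the genes tested and against BSA, 9 of 19 lower and 1 higher for TGF-β, 3 of 11 and 3 for regulators of G protein signaling, and 4 of 8 and 1 for the aryl hydrocarbon receptor. With library size alone, the lower and higher counts were 5 and 4, 3 and 4, and 2 and 2. Against Control, 2, 0 and 1 were lower by edgeR, with 0 regulators of G protein signaling lower by DESeq2 or limma and 4 at an unadjusted edgeR p below 0.05 in either direction. A further list is not reported here.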

Additional observations from a re-analysis of the deposited data

How the results depend on the processing

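The member count of 179 was 283 with no CPM filter, 96 with a stimulation limit of 0.25 and 113 with Control 1 as the one Control library, the last chosen after seeing the data. It ran from 125 to 254 under the other settings of scaling, centre, limits and overlap. Leaving out 1 library gave 164 to 260.

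For BSA + luteolin against BSA, 2516 genes were lower, and 911 with all 9 libraries in the fit, where 198 listed genes outside the set were lower in place of 508. For BSA + luteolin against Control, 318 genes (105 members) were lower. DESeq2 gave 1031 (170), no filter on low counts 706, all 9 libraries 894 (171), and leaving out 1 library 2 to 3483 (1 to 177). Between BSA and Control, 380 genes (0 members) passed, and 1224 (3) with DESeq2, 618 with no filter, 1107 (1) with all 9 libraries, 1 member with library size alone, and 90 to 5217 (0 to 60) with 1 library left out.

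The replicate block gave 2935 lower genes against BSA, 200 against Control (85 members) and 144 between BSA and Control. Correlations of the deviations of same-numbered libraries were -0.017, 0.212 and 0.33 for BSA + luteolin with BSA, so the numbers were not taken to pair the libraries. None of the 96 log2 ratios of members named by the rule changed sign with library size alone, relative log expression factors or 1 library left out. Library size alone moved 4 of them by more than 1 SD, and relative log expression factors moved 1.

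Genes in the abundance range of the members had at most 3 exons in 12.5%, 1 or more C2H2 matches in 5.16% and 5 or more in 3.60%. That range holds 9438 of the 11550 annotated genes, so it does not match the members' abundance. At the depth used, members below about 1 CPM with luteolin rest on few reads.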
